A study of Mus musculus with 4 samples.

Results

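The cytosolic ribosome is built from ribosomal RNA and one copy of most of its ribosomal proteins, which carry names in Rpl for the large subunit and Rps for the small subunit. The rule took every mouse symbol of the forms Rpl, Rps or Rplp with a number, together with Rpsa, and left out pseudogene symbols ending in -ps and the Rps6k kinases. It matched 89 symbols in the GENCODE M21 annotation, of which 5 were analysed among 29267 gene rows and 84 were not analysed here. The 5 were Rplp0, Rplp1, Rplp2 and Rpsa, all protein coding, and Rpl6l, which the annotation calls a processed pseudogene. All 5 passed the filter on low counts. None of the 5 lies on chromosome 8, and members on that chromosome were not analysed here. What follows therefore describes these 5 rows, 2 ribosome components that the symbol rule does not reach, and 22 rows whose transcript is a close copy of a ribosomal protein coding sequence (Rpl6l among them).

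The 4 RNA-seq libraries came from mouse induced epiblast stem cells (iEpiSCs): 2 were wild type and 2 carried the genotype c-Jun-/-, with the replicate numbers 2 and 3 in each. Both genotypes were converted from embryonic stem cells grown with 2i and LIF, starting 8 hours after plating, in a medium holding 20 ng/ml Activin A, 20 ng/ml bFGF, 2 µM XAV939 and 2.5 µM IWR-1, and colonies appeared at days 4 to 5. The labels do not say how the c-Jun allele was made, how many lines or clones were used or whether the replicates were separate cultures, so a p-value measures only the spread between these libraries, and genotype and cell line cannot be told apart. Total expected counts, the read counts that RSEM estimates for each gene, ran from 4666559 to 6341342 per library. Jun itself stood at 28.9 and 29.6 CPM (counts scaled to a library of 1000000) in knockout against 106 and 121 in wild type. It fell by 1.96 ± 0.12 (log2, SE; edgeR adjusted p = 1.83e-13), or fell by 74.3%, the direction that the genotype labels give, and reads remained in its row in both knockout libraries. Primed epiblast markers had a summed level of 2301 to 2346 CPM in knockout and 2607 to 2622 in wild type, with 2 of 12 tested genes higher and 7 lower. Over all tested genes, 8.21% were called higher and 7.32% lower (edgeR adjusted p under 0.05). Summed naive markers were 27.9 to 28.3 CPM in knockout and 18.7 to 19.4 in wild type, with 2 of 5 tested genes higher (Tbx3, listed at 0 in both wild-type libraries, and Klf2, on chromosome 8) and none lower; DESeq2 called 1 higher. The naive markers Nr0b1, Tcl1, Prdm14 and Dppa3 and the endoderm markers Afp and Ttr were listed at 0 in every library. Summed fibroblast markers were 119 to 130 CPM in knockout and 150 to 156 in wild type. Of 8 tested, 1 was higher (Col3a1) and 3 lower. Summed endoderm markers were 198 to 199 against 217 to 231, with none of 5 tested higher and 2 lower. Foxa2, not called, held most of that sum (mean 150 against 155 CPM). Summed trophoblast markers were 615 to 648 against 822 to 857, with none of 6 tested higher and 3 lower. Krt8 (mean 319 against 411 CPM) and Krt18 (233 against 324) held most of that sum. The part of these marker differences in the results below was not tested.

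Ribosomal protein mRNAs are among the most abundant of a growing cell, and many of them start with a pyrimidine run, the terminal oligopyrimidine (TOP) motif, through which mTOR signalling sets how strongly they are translated. Rplp0, Rplp1 and Rplp2 encode the acidic proteins uL10, P1 and P2, which form the P-stalk of the large subunit, the arm that recruits elongation factors and switches on their GTPase activity. Rpsa encodes uS2, a protein of the small subunit needed for processing of its ribosomal RNA and also described as a laminin receptor. Rpl6l carries a copy of the coding sequence of Rpl6, the large subunit protein eL6. The 2 further genes make ribosome components under other names. Fau encodes a ubiquitin-like protein fused to the small subunit protein eS30, and Rack1 encodes a scaffold protein bound to the head of the small subunit.

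Ribosomal protein genes have many retrotransposed copies, and reads from identical stretches cannot be told apart. The sequences of 2 such pairs are shown because they bear on which gene the reads counted for Rpl6l and Fau came from, which was not tested. Each line gives 75 bases from the middle of the alignment, 75 being the number of cycles of the sequencing kit, 5′ to 3′ as in the GENCODE M21 transcripts, with capitals at the positions where the 2 sequences of a pair differ.
Rpl6: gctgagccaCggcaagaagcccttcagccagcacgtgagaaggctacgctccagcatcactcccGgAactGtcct
Rpl6l: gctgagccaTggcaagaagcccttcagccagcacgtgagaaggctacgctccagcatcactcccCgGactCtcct
Fau and Gm9843: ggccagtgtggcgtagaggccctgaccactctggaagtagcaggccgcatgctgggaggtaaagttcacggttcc
The first pair covers bases 399 to 473 of the Rpl6 coding sequence and differs at 4 of them. The second covers bases 163 to 237 of the Fau coding sequence and does not differ. Along the whole alignment, 98.7% of bases agreed between Rpl6 and Rpl6l and 100% between Fau and Gm9843. Of all 75-base windows, 53.7% were identical in the first pair and 100% in the second, and with up to 2 mismatches allowed the share of the first pair was 88.2%.

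The rows of all 5 members held high levels, which differed little between the genotypes. For the Rpl6l row, which gene the reads came from was not tested. By mean TPM (a level per transcript length, scaled to a sum of 1000000 in each library) over the 4 libraries, Rpsa was the highest at 2788, followed by Rplp0 at 2576, Rpl6l at 2542, Rplp1 at 2210 and Rplp2 at 1543. They ranked 26, 30, 32, 37 and 61 among all gene rows. Over the libraries the TPM ranges of Rpsa, Rplp0 and Rpl6l overlapped, those of Rplp1 lay below them and those of Rplp2 below Rplp1. In the genotype comparison 1 of the 5, Rpsa, rose in knockout and none fell, where 8.21% of the 12598 tested genes were called higher, 7.32% lower and 15.5% either way (edgeR's quasi-likelihood test, Benjamini-Hochberg adjusted p under 0.05). Among the 900 tested genes at least as abundant in mean CPM as the least abundant member, 18.1% were called higher. At an unadjusted p under 0.05, 2 members were higher (Rpsa and Rplp0) and none lower; DESeq2 also called 1 higher and none lower. The median log2 difference over the members was 0.076, beside 0.002 over all tested genes and 0.025 over those 900. Without wild-type replicate 2 the members' median was 0.047.

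**Figure D1:**
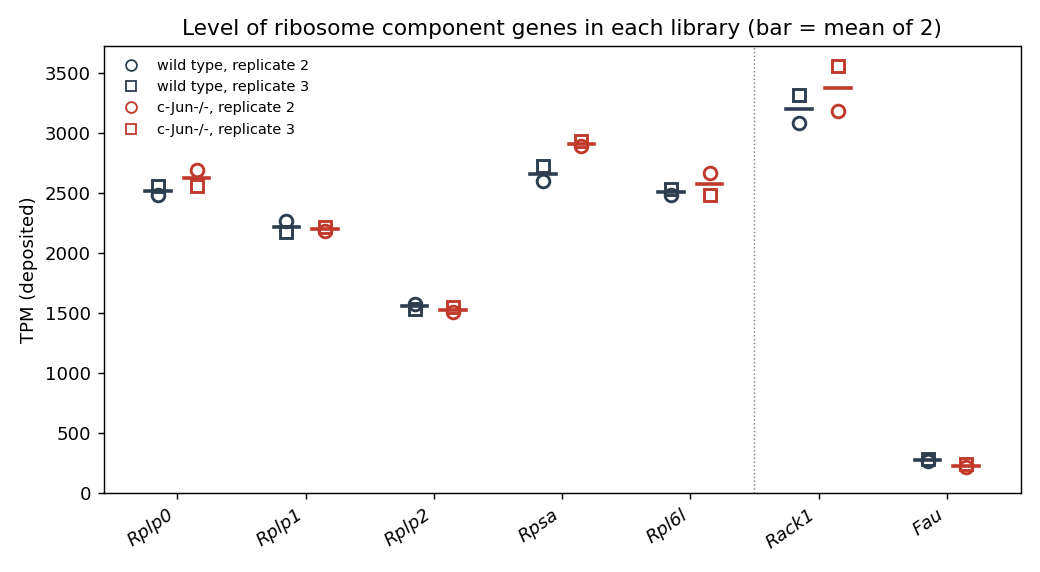
Level of each ribosome component gene (TPM as deposited, y axis) in the 4 libraries, circles for replicate 2 and squares for replicate 3, wild type in dark blue and c-Jun-/- in red, with a bar at the mean of 2. Left of the dotted line are the 5 members, of which Rpsa and, by a narrow gap, Rplp0 show both knockout libraries above both wild-type libraries; right of it are Rack1 and Fau.

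None of the 3 P-stalk genes passed the edgeR test. Rplp0, at chr5:115559467-115563727 (mm10), plus strand, stood at 1717 and 1695 CPM in knockout and at 1563 and 1626 CPM in wild type. Its groups did not overlap, with the nearest pair only 0.06 apart on the log2 scale. The difference was 0.098 ± 0.042 (log2, SE, n = 2 against 2; 95% interval 0.012 to 0.18; edgeR adjusted p = 0.126). Rplp0 was called in limma voom (adjusted p = 0.0446) and in the fit with the replicate number as a block (adjusted p = 0.0181), and in none of the 13 other alternatives.

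Rplp1, at chr9:61913284-61914542, minus strand, encodes P1, which pairs with P2 on the stalk. It had 343 and 372 CPM in knockout and 356 and 347 CPM in wild type, so that both wild-type libraries lay between the knockout ones. Its difference was 0.021 ± 0.063 (95% interval -0.11 to 0.15; edgeR adjusted p = 0.882). Rplp2, at chr7:141447370-141451585, plus strand, encodes P2. It had 213 and 230 CPM in knockout and 217 and 227 CPM in wild type, with the groups again overlapping. Its difference was -0.007 ± 0.072 (95% interval -0.15 to 0.14; edgeR adjusted p = 0.971). Both intervals span changes in either direction, and the sign of both genes turned under some alternatives. Part of the Wdr89 transcript matches the whole Rplp2 coding sequence at 99.4% identity. The Wdr89 row held 118 to 188 counts, against 1055 to 1343 for Rplp2. How reads were shared between these 2 rows was not tested.

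The levels of the partner mRNAs P1 and P2 kept a narrow ratio. Rplp1 TPM divided by Rplp2 TPM was 1.45 and 1.43 in knockout and 1.44 and 1.42 in wild type. The ratio of Rplp0 TPM to Rplp2 TPM was more variable, at 1.79 and 1.65 in knockout and 1.58 and 1.66 in wild type. Neither ratio separated the genotypes. Together the 3 stalk genes took 0.639% and 0.633% of all TPM in knockout and 0.633% and 0.627% in wild type.

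Rpsa, the only member of the small subunit, was the only one called. It lies at chr9:120127689-120132369 on the plus strand. It had 2662 and 2792 CPM in knockout and 2350 and 2494 CPM in wild type, without overlap. Its level in TPM was 2892 and 2933 in knockout and 2600 and 2729 in wild type, again without overlap. Rpsa rose by 0.17 ± 0.040 (log2, SE, n = 2 against 2; 95% interval 0.088 to 0.25; edgeR adjusted p = 0.00263), or 12.6%. The difference stayed positive in all 15 alternatives (0.13 to 0.22) and was called in 13 of them. It missed the threshold with limma on log2(TPM + 1) (adjusted p = 0.216) and without wild-type replicate 2 (0.13, edgeR adjusted p = 0.0502).

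Rpl6l, at chr10:111125851-111126721, plus strand, had 1004 and 977 CPM in knockout and 923 and 956 CPM in wild type. The groups did not overlap in CPM, the nearest pair being 0.031 apart on the log2 scale. In TPM they overlapped, at 2666 and 2484 in knockout and 2482 and 2537 in wild type. Its difference was 0.076 ± 0.048 (95% interval -0.021 to 0.17; edgeR adjusted p = 0.324), and it was called in none of the 15 alternatives. Since Rpl6 was not analysed here, the share of these reads that came from Rpl6 was not tested. With Rplp0, Rpl6l and Rpsa, 3 of 5 members were higher in knockout without overlap in CPM, and none lower. By the same measure, 27.0% of all tested genes were higher without overlap and 26.9% lower. Of the 900 abundant ones, 39.0% were higher without overlap.

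Between subunits the comparison rests on 4 genes against 1. The large subunit members Rplp0, Rplp1, Rplp2 and Rpl6l had a median of 0.048 with none called, and the small subunit member Rpsa stood at 0.17. The 5 members together took 0.591% and 0.598% of the counts in knockout and 0.544% and 0.567% in wild type, a mean difference of 0.0385 percentage points. In TPM the shares were 1.20% and 1.18% in knockout against 1.14% and 1.15% in wild type. An exact two-sided permutation test over the libraries gave p = 0.333 for both, the smallest value that 2 against 2 libraries can give.

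Of the components under other names, neither Rack1 nor Fau was called. Rack1, on chromosome 11, had 1679 and 1730 CPM in knockout and 1608 and 1695 CPM in wild type, with overlap, and differed by 0.045 ± 0.043 (edgeR adjusted p = 0.555). Fau, on chromosome 19, had 49.6 and 58.1 CPM in knockout and 59.7 and 66.2 CPM in wild type, without overlap, and differed by -0.24 ± 0.12 (edgeR adjusted p = 0.226). The Fau value moved to -0.12 without knockout replicate 2, to -0.15 without wild-type replicate 3 and to -0.34 without knockout replicate 3, and it was called in none of these. The row Gm9843 holds a sequence identical to the Fau coding sequence and 237 and 247 CPM in knockout against 236 and 240 in wild type. Summed over Fau and Gm9843, the log2 ratio of the genotype means was -0.023, and the Gm9843 row held most of that sum. How reads were shared between both rows, and which gene those in the Gm9843 row came from, was not tested.

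In all, 22 rows copied ribosomal protein genes that lie outside chromosome 8. The copies were chosen after the data were seen, as transcripts with at least 90% identity to at least 70% of a ribosomal protein coding sequence, with at least 50% of their own length in the match to the parent mRNA and no overlap with the parent gene in the genome. Of the 22, 2 were called higher, none lower and 20 were not called, with a median of 0.088, where 8.21% of all tested genes were called higher (at an unadjusted p under 0.05, 6 higher and none lower; with DESeq2, 1 higher and none lower). The 18 of them with at least 100 counts in every library lay between -0.058 and 0.21, with a median of 0.080. Copies of large subunit genes (14 rows, median 0.080, 1 called) and of small subunit genes (7 rows, median 0.12, 1 called) covered overlapping ranges, and the remaining row was the Fau copy. The median of the 22 was 0.133 without knockout replicate 2 and 0.058 without wild-type replicate 2. Of the 22 copies, 20 have a parent that was not analysed here, so the values of parent and copy cannot be set side by side for these.

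The called copies were those of Rpl12 and Rps18. Gm9396, 99.2% identical to Rpl12, which encodes a large subunit protein at the base of the P-stalk, had 432 and 467 CPM in knockout and 387 and 388 CPM in wild type. It rose by 0.21 ± 0.060 (edgeR adjusted p = 0.0121). Gm10260, 99.1% identical to Rps18, which encodes a protein in the head of the small subunit, had 385 and 435 CPM in knockout and 354 and 362 CPM in wild type. It rose by 0.19 ± 0.064 (edgeR adjusted p = 0.0348) and was not called by DESeq2. With up to 2 mismatches allowed, 97.1% of 75-base windows matched between Gm9396 and Rpl12, and 100% between Gm10260 and Rps18. Since neither parent was analysed here, which gene the reads of these rows came from was not tested. Both calls depended on single libraries. Without knockout replicate 3 Gm9396 stood at 0.16 (edgeR adjusted p = 0.191) and Gm10260 at 0.11 (edgeR adjusted p = 0.469). Gm10260 was also not called without wild-type replicate 2 (edgeR adjusted p = 0.129) or without wild-type replicate 3 (edgeR adjusted p = 0.0785).

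The most abundant copy by TPM, though not by CPM, was Gm10076, which matches the very short Rpl41 and had a mean of 11050 TPM. It stood at 1069 and 1182 CPM in knockout and 1048 and 1075 CPM in wild type, with overlap, and differed by 0.084 ± 0.049 (edgeR adjusted p = 0.289). Leaving out knockout replicate 3 gave 0.010 and leaving out knockout replicate 2 gave 0.16, not called in either. Gm8730 is a copy of Rplp0 that itself lies on chromosome 8. It held 19.3 and 13.0 counts in knockout and 3.1 and 5.0 counts in wild type, against 7795 to 10829 counts for Rplp0. Its difference was 1.90 ± 0.70 (edgeR adjusted p = 0.0633), not called, and its counts were too few to alter the Rplp0 value.

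**Figure D2:**
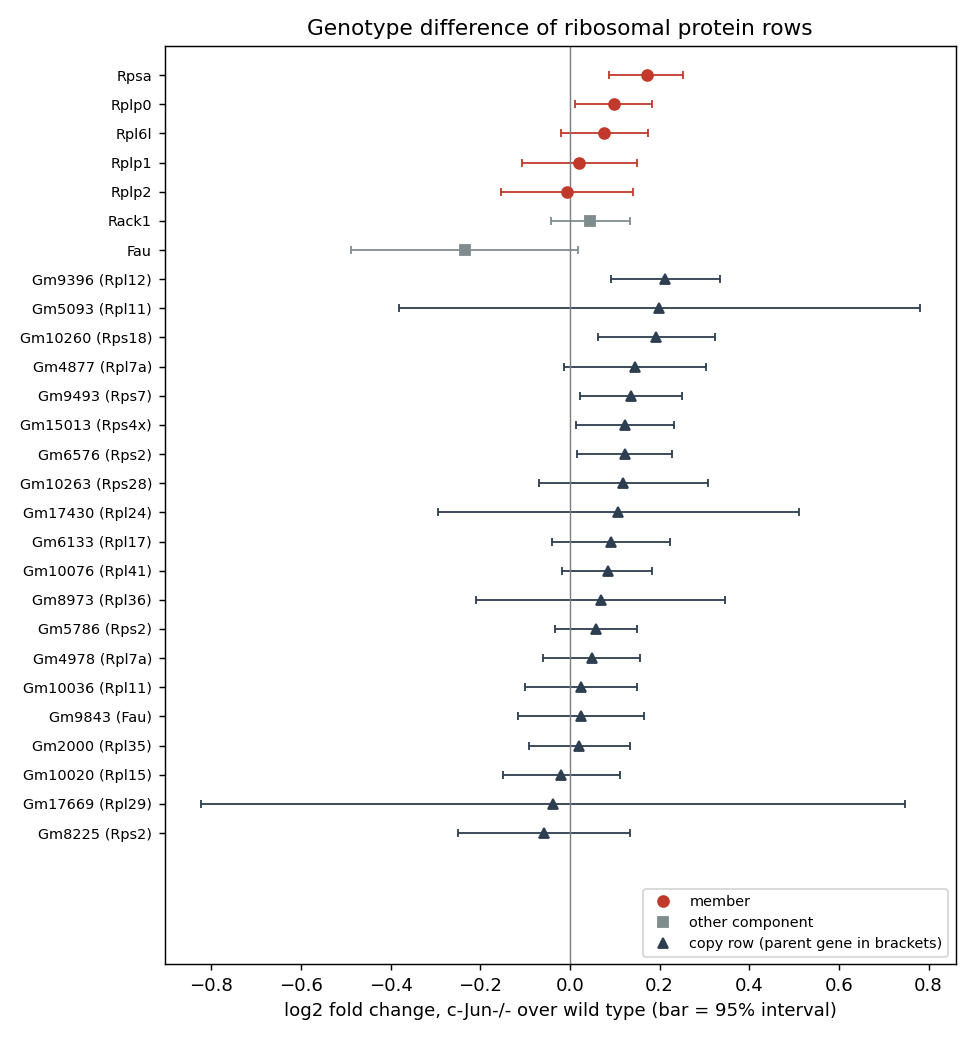
Log2 fold change of c-Jun-/- over wild type (x axis) with its 95% interval for the 5 members (circles), 2 other components (squares) and the copies with the parent gene in brackets (triangles); Gm8730, at 1.90, lies outside the range and is not drawn. The members lie at -0.007 to 0.17, and the copies drawn lie on both sides of 0 up to 0.21.

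**Figure D3:**
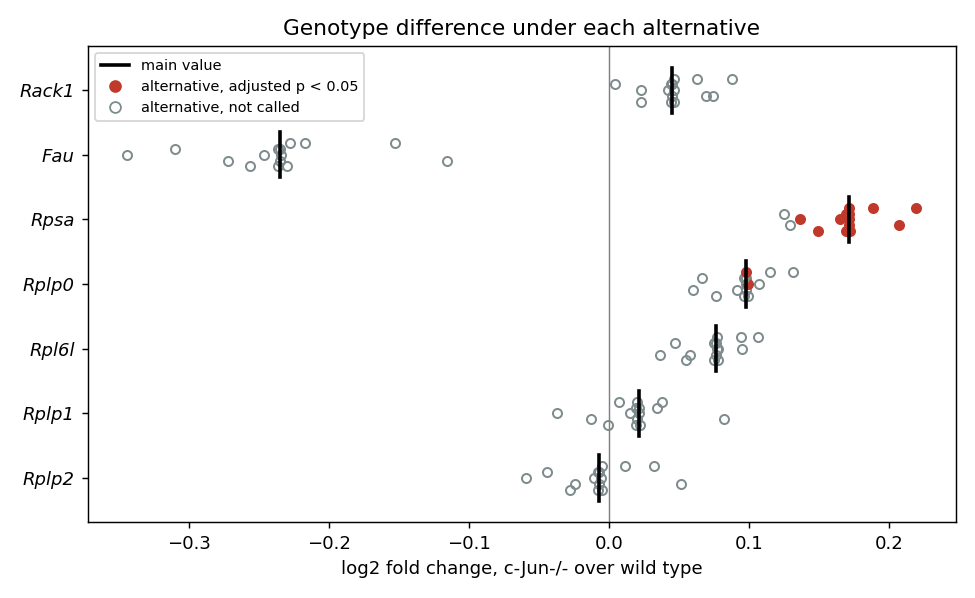
Log2 fold change of c-Jun-/- over wild type (x axis) for the members, Fau and Rack1; the black bar is the main value, filled red points are alternatives with adjusted p under 0.05 and open grey points are the others. Rpsa stays between 0.13 and 0.22, and Rplp1 and Rplp2 fall on both sides of 0.

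Promoter sequence was looked at because c-Jun is a subunit of AP-1. RefSeq windows on GRCm38.p6 matched 3 of the 5 members, Rplp0, Rplp2 and Rpsa, and the 250 bases before the annotated start were searched on both strands. The AP-1 motif TGANTCA was found in none of these 3, in a window of Rack1 (63 bases before the start) and in 6.75% of all 32851 windows. The ETS-type motif CCGGAAG was found in Rplp2 (108 bases before the start) and Rpsa (188 bases before the start) and in 6.91% of all windows. These starts are those of RefSeq. The Rplp2 window, chr7:141447401-141447700, lies inside the GENCODE span of the gene given above, so bases before the GENCODE start were not searched for Rplp2. The ETS-type match of Rplp2 therefore lies inside that span. For Rpsa and Rack1 the searched bases began before the GENCODE start and ran past it. No window of these genes held both motifs. Whether these motifs bear on the levels was not tested.

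Around the ribosome, translation factors and other genes with a TOP mRNA included 7 of 23 tested that rose and none that fell, beside 8.21% higher and 7.32% lower among all tested genes and 18.1% higher among the 900 abundant ones. The list was chosen with earlier results of these data known. The remaining 16 were not called, the median was 0.12, and none lies on chromosome 8. Eef2, the elongation factor that moves the ribosome along the mRNA and binds at the P-stalk, had 3287 and 3387 CPM in knockout and 2828 and 2962 CPM in wild type. It rose by 0.21 ± 0.038 (edgeR adjusted p = 0.000154). Eef1a1, which delivers aminoacyl-tRNA, had 10850 and 10950 CPM in knockout and 10080 and 9965 CPM in wild type and rose by 0.12 ± 0.028 (edgeR adjusted p = 0.00232). Npm1, a nucleolar protein that shuttles ribosomal subunits, rose by 0.16 ± 0.037 (edgeR adjusted p = 0.00307). DESeq2 called 7 higher and none lower, and at an unadjusted p under 0.05 edgeR gave 12 higher and 1 lower. The count was 5 without any 1 of the 4 libraries, 11 with the replicate number as a block and 0 with limma on log2(TPM + 1). Other initiation factors had a median of 0.010, with 2 of 24 higher and 1 lower. The lower one was Eif1, a factor for start codon choice, at -0.26 ± 0.077 (edgeR adjusted p = 0.0188), and the higher ones were Eif4ebp1, on chromosome 8, at 0.64 ± 0.087 (edgeR adjusted p = 1.6e-06) and Eif2a at 0.30 ± 0.087 (edgeR adjusted p = 0.0146). After the median shift of chromosome 8 was removed from its genes, Eif4ebp1 stood at 0.13 and was not called (edgeR adjusted p = 0.404). Without knockout replicate 3, or without wild-type replicate 2, neither Eif1 nor Eif2a was called.

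Ribosome biogenesis genes, which process ribosomal RNA and assemble the subunits, had 11 of 57 tested members higher and none lower, with a median of 0.11 (17 and 0 at an unadjusted p under 0.05, 7 and 0 with DESeq2). Over all tested genes the shares were 8.21% higher and 7.32% lower. All 4 chromosome 8 members of this list were among the 11. Over the 684 tested chromosome 8 genes the median difference was 0.51 and 57.2% were called higher, against -0.013 and 5.4% over tested genes elsewhere, and genotype and this chromosome-wide difference cannot be told apart. Mak16, an assembly factor of the large subunit on chromosome 8, had 262 and 251 CPM in knockout and 153 and 149 CPM in wild type, and rose by 0.77 ± 0.074 (edgeR adjusted p = 2.3e-09). Utp4 (0.59 ± 0.071, edgeR adjusted p = 1.62e-07) and Nob1 (0.70 ± 0.097, edgeR adjusted p = 1.9e-06), both on chromosome 8, act in small subunit processing. After that median shift was removed, Mak16 stood at 0.26 and was still called (edgeR adjusted p = 0.0168), while Utp4 at 0.08 (edgeR adjusted p = 0.534) and Nob1 at 0.19 (edgeR adjusted p = 0.22) were not. The count of 11 became 8 after this step and 7 with chromosome 8 genes left out. The 7 called genes on other chromosomes were Ncl, Nop56, Bop1, Utp20, Gnl3, Dkc1 and Tsr1, named after their values were seen, at 0.15 to 0.33. The count of 11 became 5 without knockout replicate 3, 7 without knockout replicate 2, 7 without wild-type replicate 2 and 6 without wild-type replicate 3. Of 9 tested ribosomal protein chaperones 1 rose, Heatr3 on chromosome 8 (0.59 ± 0.10, edgeR adjusted p = 8.63e-05), which stood at 0.08 and was not called after the same step (edgeR adjusted p = 0.721). None of 13 tested snoRNA host genes was called by edgeR or DESeq2, and 2 were higher at an unadjusted p under 0.05.

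RNA polymerase I and III genes, which make ribosomal RNA and transfer RNA, had a median of 0.060. Of 35 tested, 1 was higher and 2 lower, beside 8.21% and 7.32% of all tested genes. DESeq2 gave none and 2 of the 35, and an unadjusted p under 0.05 gave 4 and 3. Bdp1, a subunit of the polymerase III factor TFIIIB, stood at -0.36 ± 0.089 (edgeR adjusted p = 0.00385). Polr2l, a small subunit shared by the polymerases, had 20.9 and 28.3 CPM in knockout and 35.2 and 39.7 CPM in wild type (-0.62 ± 0.17, edgeR adjusted p = 0.00983). Rrn3, the initiation factor of polymerase I, was at 0.21 ± 0.071 (edgeR adjusted p = 0.0357). The Rrn3 call was lost without knockout replicate 2 and without either wild-type library, that of Polr2l without knockout replicate 2 and without wild-type replicate 3, and that of Bdp1 without knockout replicate 3.

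Of 29 tested Myc and mTOR regulators, 3 rose and 5 fell, with a median of -0.011. Over all tested genes, 8.21% were called higher and 7.32% lower. DESeq2 called none of the 29 higher and 3 lower, and at an unadjusted p under 0.05 edgeR gave 3 higher and 6 lower. Ddit4, an mTOR inhibitor induced by stress, had 136 and 140 CPM in knockout and 194 and 197 CPM in wild type, and fell by 0.50 ± 0.078 (edgeR adjusted p = 1.47e-05). Mycl, a Myc family member, fell by 0.54 ± 0.11 (edgeR adjusted p = 0.0007), and Pdcd4, an inhibitor of the helicase eIF4A, fell by 0.61 ± 0.15 (edgeR adjusted p = 0.00347). Named after their values were seen, the 3 that rose were Castor1, Myc itself and Mga. Their differences were 0.41 ± 0.12 (edgeR adjusted p = 0.0175), 0.30 ± 0.094 (edgeR adjusted p = 0.028) and 0.21 ± 0.070 (edgeR adjusted p = 0.0402). Mycn stood at 0.18 ± 0.10 and was not called (edgeR adjusted p = 0.268). The 3 that rose became 1 without any 1 of the libraries, and the 5 that fell became 3 without wild-type replicate 2. Of 12 tested factors that bind ribosomal protein promoters or the core promoter, 2 rose and 1 fell, with a median of 0.002 (1 and 1 with DESeq2). Rreb1 stood at -0.43 ± 0.10 (edgeR adjusted p = 0.00257), Taf1 at 0.34 ± 0.088 (edgeR adjusted p = 0.00579) and Nrf1 at 0.37 ± 0.12 (edgeR adjusted p = 0.0384). Without wild-type replicate 3 none of these 3 was called, and Nrf1 was also not called without any 1 of the other libraries.

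Free ribosomal proteins can switch on the p53 response by binding Mdm2. Of 17 tested genes of this response and regulators of p53, 5 were higher and 2 lower, with a median of 0.066. The shares over all tested genes were 8.21% higher and 7.32% lower, and 18.1% of the 900 abundant genes were higher. Several of the 17, Cdkn2a and Bax among them, were less abundant than those 900. Aen, a nuclease induced by p53, had 168 and 156 CPM in knockout and 232 and 235 CPM in wild type, and fell by 0.53 ± 0.075 (edgeR adjusted p = 3.16e-06). Cdkn2a, which encodes p16 and the Mdm2 inhibitor p19Arf, had 14.6 and 21.1 CPM in knockout and 9.1 and 7.5 CPM in wild type, and rose by 1.09 ± 0.26 (edgeR adjusted p = 0.00316). Ccng1, a p53 target, rose by 0.17 ± 0.044 (edgeR adjusted p = 0.0076). Named after their values were seen, the other called genes were Mdm2 (0.22), Gtse1 (0.23) and Mdm4 (0.27), higher, and Btg2 (-0.23), lower. Cdkn1a stood at -0.007 and was not called (edgeR adjusted p = 0.96). The 5 that rose became 2 without knockout replicate 2 and 3 without knockout replicate 3 or without wild-type replicate 2, and the 2 that fell became 1 without knockout replicate 2 or without wild-type replicate 3. Cdkn2a was not called without knockout replicate 3, nor Ccng1 without knockout replicate 2 or without wild-type replicate 3.

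**Figure D4:**
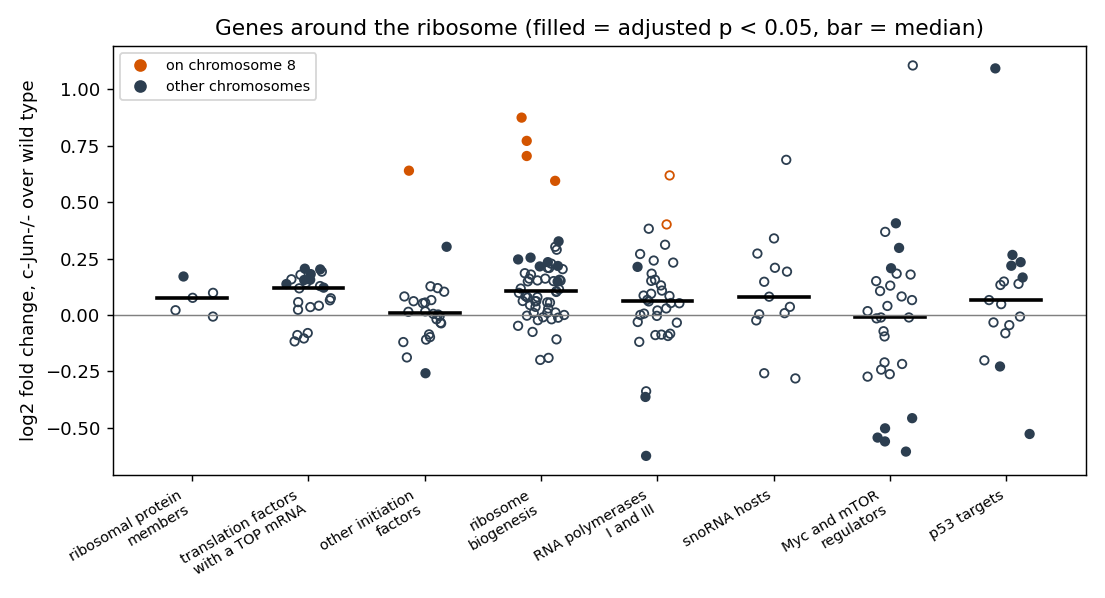
Log2 fold change of c-Jun-/- over wild type (y axis) for the 5 members and 7 lists of genes around the ribosome; each point is a tested gene, filled when the edgeR adjusted p is under 0.05, orange on chromosome 8, with a bar at the list's median. The 4 highest points of ribosome biogenesis are its chromosome 8 genes, and the 7 filled points among translation factors with a TOP mRNA all lie above 0.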

How the data were processed

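RNA of 4 mouse iEpiSC libraries was prepared with an Illumina TruSeq kit, per the labels' protocols; strand-specific counting is not stated, so overlapping genes cannot be told apart. Bowtie2, RSEM and mm10 are named in the submitters' processing notes, without a role for each; versions and annotation: not given in the sources used here. The authors deposited, per the file headers, an expected count (an estimated count, which shares reads among similar genes) and TPM for each gene; TPM over the listed rows sums to 1000000 per library. Of 29267 rows, 28756 matched GENCODE M21 (GRCm38, the assembly of mm10).

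Expected counts were rounded, filtered with filterByExpr (minimum count 10), scaled by TMM (factors 0.988 to 1.008) and tested with edgeR 4.0.16 (R 4.3.3; quasi-likelihood F test, genotype only, all 12598 genes, Benjamini-Hochberg, threshold 0.05). The biological coefficient of variation was 6.5%. CPM are counts scaled to 1000000 with TMM. Alternatives used limma 3.58.1, DESeq2 1.42.0, other scalings and filters, a pseudocount of 1 on TPM and a replicate block. Further alternatives left out or centred chromosome 8, or left out each library. The fit was also run on simulated data. The simulated differences were larger than those of the members, so that run does not bear on differences of their size. Copies were found with blastn 2.17.0 among 12492 rows with a mean count of at least 10, against the coding sequences of the principal transcripts.

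Members, lists and alternatives were chosen with earlier results of these data known. Named were the members, the components under other names, up to 3 called genes with the smallest p of each list, and Jun. Copies and some further genes of the lists were named after their values were seen. Libraries of 1 genotype correlated at r = 0.981 (knockout) and 0.982 (wild type) in log2 CPM, across genes. Some items are not reported here.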

Additional observations from a re-analysis of the deposited data

How the results depend on the processing

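With 2 libraries per genotype, the members' log2 differences carried standard errors of 0.040 to 0.072, and a difference of 0.098 (Rplp0) was not called. Of the members, 1 was called higher; this became 0 with limma on log2(TPM + 1), 2 with limma voom, 2 with the replicate block, and 0 to 1 with a library left out (0 without wild-type replicate 2). None was called lower in any of the 15 alternatives. The members' median was 0.036 with limma on TPM and 0.047 to 0.106 with a library left out, and that of the large subunit 0.012, with 0.027 for total counts without TMM and 0.029 to 0.070 with a library left out. Rplp1 turned to -0.013 with limma on TPM, -0.001 with total counts and lay between -0.037 and 0.082 with a library left out. Rplp2 turned to 0.011 with chromosome 8 genes left out, 0.051 and 0.032 without knockout replicate 2 and wild-type replicate 3, and ranged from -0.059 to 0.051 with a library left out. Gm9843 turned to -0.009 with limma on TPM and -0.002 without knockout replicate 3, with a leave-one-out range of -0.002 to 0.055. The cause of these changes was not tested. The summed share differed by 0.0402 percentage points with Fau and Rack1 added (a set chosen after seeing the data) and by 0.0739 with the copies. Over all genes, 1034 were higher and 922 lower; higher genes numbered 651 with chromosome 8 centred, 673 with it left out (fewer genes tested) and 250 with limma on TPM, and lower genes 580 with DESeq2 and 170 with limma on TPM.

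Same-numbered libraries did not deviate together (correlation 0.022), so the replicate numbers were not taken to pair samples; the replicate block gave 1250 higher and 1127 lower genes. No alternative for a member on chromosome 8 could be computed, since none was analysed, and Rpl36al was not added to the summed share for the same reason.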
